A study of Mus musculus with 18 samples.

Results

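The genes of the mitochondrial genome are the 37 rows that the deposited liver table places on chromosome MT, out of 54532 rows in all. They are 13 protein-coding genes, 2 rRNA genes and 22 tRNA genes. They were chosen by chromosome alone, without regard to their levels. All 37 agree in position and length with the GENCODE vM21 annotation of mouse build GRCm38, and coordinates here are of that build.

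The livers came from 18 male C57BL/6J mice, 6 in each of 3 groups. Normal control mice (NC, labelled CHOW) ate normal chow. HFD control mice (HFD) were fed a high-fat diet for 14 weeks and then given saline with the diet continued. SZ-A mice (labelled SZ) had the same diet and were then treated with SZ-A, an alkaloid preparation from mulberry twig (Ramulus Mori). Treatment lasted 8 weeks in the deposited design text and 6 weeks in the study's methods, and the dose and route for the sequenced mice are not given in the sources used here. The mice were 6 weeks old on arrival and were fasted overnight before the livers were taken. The diet label of NC6 reads high-fat and conflicts with its title. This mouse was kept in NC, and counts of members, of copies and of genes in lists are also given without it. Nothing in the labels ties a replicate number to a cage, a litter or a day.

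Mitochondria keep a small circular genome that encodes core subunits of the respiratory chain together with the rRNAs and tRNAs needed to translate them. Both strands are transcribed as long precursors, and tRNAs that lie between the other genes are cut out to release the mRNAs and rRNAs. The remaining subunits, and all proteins that copy, transcribe and process this genome, are encoded in the nucleus, and liver is a tissue rich in mitochondria.

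The tRNA genes on which the comparisons turn are shown with the anticodon in capitals, written 5′ to 3′ on the strand of the gene with T for U. mt-Tp, which carries proline, lies at MT:15356-15422 on the minus strand, and mt-Tn, which carries asparagine, at MT:5089-5159 on the minus strand. mt-Tg for glycine lies at MT:9391-9458, mt-Th for histidine at MT:11546-11612 and mt-Ts2 for serine at MT:11613-11671, all on the plus strand.
mt-Tp: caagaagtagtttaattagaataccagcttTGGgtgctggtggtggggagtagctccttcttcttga
mt-Tn: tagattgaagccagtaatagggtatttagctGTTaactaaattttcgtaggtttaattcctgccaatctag
mt-Tg: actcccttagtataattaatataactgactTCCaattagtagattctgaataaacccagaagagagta
mt-Th: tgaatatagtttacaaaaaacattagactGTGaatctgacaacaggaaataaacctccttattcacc
mt-Ts2: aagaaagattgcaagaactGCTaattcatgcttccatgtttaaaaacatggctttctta
These genes are 59 to 71 bases long, shorter than the 150-base reads, so a fragment from one of them can also cover its neighbours. How such fragments were counted was not examined here.

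A stretch of the mitochondrial genome, MT:6390-11042, has a near-identical copy in the nuclear genome on the minus strand of chromosome 1 between 24611535 and 24616197, where the annotation lists pseudogenes of their own. Matches to the annotated pseudogene transcripts there cover almost all of mt-Co2, mt-Atp6, mt-Co3, mt-Nd3 and mt-Nd4l, 876 bases of mt-Nd4, 483 bases of mt-Co1 and 43 bases of mt-Atp8. mt-Atp8 lies whole inside the stretch, and the rest of it was not compared, since these transcripts do not hold it. The first 60 bases of mt-Co2 (MT:7013-7072) and of its copy Gm28661 (1:24615506-24615565) are the same. Those of mt-Nd3 (MT:9459-9518) and its copy Gm28438 (1:24613060-24613119) differ by T3C, counted from the first base of the gene and shown in capitals.
mt-Co2: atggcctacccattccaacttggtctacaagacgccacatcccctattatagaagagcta
Gm28661: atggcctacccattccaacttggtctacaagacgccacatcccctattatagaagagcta
mt-Nd3: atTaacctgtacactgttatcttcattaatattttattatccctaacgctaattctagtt
Gm28438: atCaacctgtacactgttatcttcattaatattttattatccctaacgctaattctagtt
Of all 150-base windows of mt-Co2, mt-Atp6, mt-Co3, mt-Nd3 and mt-Nd4l, 97.0% to 99.8% were found unchanged in another annotated transcript. The share was 59.2% for mt-Nd4, 23.6% for mt-Co1 and 0 for the other 6 mRNAs and both rRNAs. How fragments that fit several places were counted is not given in the sources used here, so the levels of the copied genes are uncertain. The tRNA genes mt-Ts1, mt-Td, mt-Tk, mt-Tg and mt-Tr lie inside the same stretch.

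Fragments on genes, worked back from the deposited FPKM (fragments per kilobase of gene, scaled to the depth of the library), came to 17163191 to 20493907 per mouse. The library size that the authors divided by was this total times a factor, which lay between 0.933 and 1.02 for NC, between 0.998 and 1.14 for HFD and between 0.972 and 1.05 for SZ-A. The factor was thus higher in HFD mice, which lowers their FPKM of every gene against the fragment total, and counts of calls are also given on other scales. No 2 mice of a group agreed within counting noise.

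Mitochondrial genes took 3.14% to 4.87% of the fragments on genes. The share does not use the library size. It was 3.91% at the lowest, 4.40% at the median and 4.87% at the highest in NC mice (4.40% ± 0.357, SD, n = 6). In HFD mice it was 3.14%, 3.79% and 4.36% (3.77% ± 0.404, SD, n = 6), and in SZ-A mice 3.34%, 3.62% and 3.87% (3.63% ± 0.191, SD, n = 6). All 6 SZ-A mice lay below the lowest NC mouse, while the HFD range overlapped both. Since it sums over the members, the share was not tested.

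Among the members with a mean of at least 1 FPKM, levels ran from 1.62 FPKM for mt-Ta, the alanine tRNA, to 9071 FPKM. Highest was mt-Co1, the catalytic subunit of cytochrome c oxidase (complex IV) with that mean over 18 mice, the 5th highest of all genes in the table. mt-Cytb, the cytochrome b subunit of complex III, followed at 6379 FPKM. Subunits of the NADH dehydrogenase (complex I) came next, with 4589 FPKM for mt-Nd2, 4199 for mt-Nd1, 2368 for mt-Nd4, 1706 for mt-Nd5 and 1657 for mt-Nd6. mt-Nd6 is the protein-coding gene on the minus strand and shares 14 bases with mt-Nd5 on the plus strand. Strand use in counting is not given in the sources used here, so RNA of the opposite strand cannot be told apart there or at any tRNA.

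The other 6 mRNAs lay far lower. mt-Atp6, a subunit of the ATP synthase, had a mean of 127 FPKM, the complex IV subunits mt-Co3 and mt-Co2 had 93.0 and 91.3, and the complex I subunits mt-Nd4l and mt-Nd3 had 87.4 and 70.7. These are the 5 genes copied almost whole on chromosome 1. mt-Atp8, the other ATP synthase subunit, was lowest at 4.27 FPKM and overlaps mt-Atp6 by 43 bases. The 7 chromosome 1 copies Gm29216, Gm28661, Gm10925, Gm28437, Gm28438, Gm10222 and Gm28439 were listed at 6.41 FPKM in the lowest mouse (Gm28438) up to 132 FPKM in the highest (Gm10925). The role of shared sequence in these low levels was not tested.

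**Figure D1:**
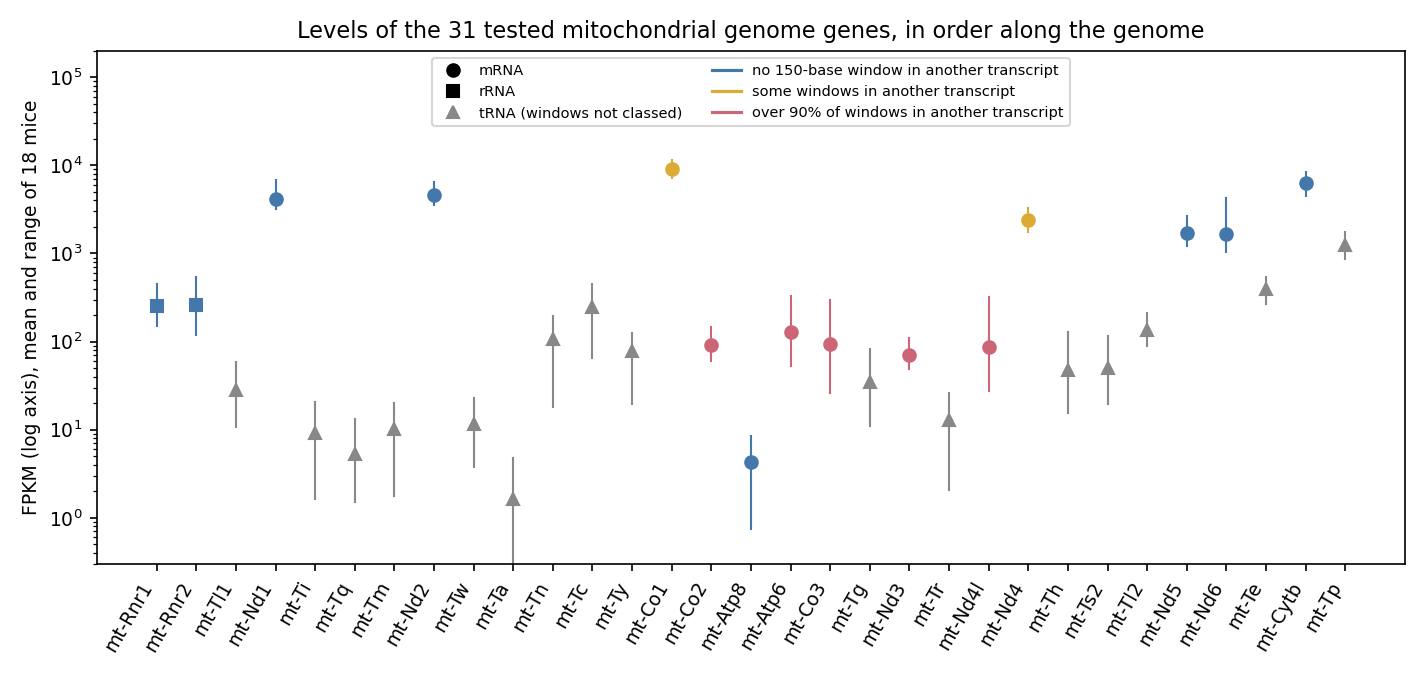
Mean FPKM (marker) and range over 18 mice (line) of the 31 tested genes on a log axis, in their order along the mitochondrial genome, coloured for mRNAs and rRNAs by the share of 150-base windows also found in another annotated transcript. The 5 mRNAs with over 90% of windows shared lie near 100 FPKM, between mt-Co1 at 9071 and mt-Nd4 at 2368 FPKM, and mt-Ta was at 0 in 4 mice, so that its line runs to the bottom of the axis.

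The 13 mRNAs took 95.7% to 98.9% of the mitochondrial fragments of a mouse, and mt-Co1 alone 30.9% to 40.3%. The 2 rRNAs took 0.757% to 3.68%, in libraries made from RNA caught on poly-T beads. The 22 tRNAs took 0.315% to 0.621%. Of the tRNAs, mt-Tp had the highest mean with 1254 FPKM, then mt-Te for glutamate with 399 and mt-Tc for cysteine with 248. Compared by strand, the 8 tRNA genes on the minus strand held 47854 fragments over all mice and the 14 on the plus strand 7870.

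Of the 37 genes, 31 had a mean of at least 1 FPKM over the 18 mice and were tested: all 13 mRNAs, both rRNAs and 16 tRNAs. The tRNAs mt-Tv, mt-Tt, mt-Tk and mt-Ts1 had 1 to 10 fragments over all mice and were not tested. mt-Tf and mt-Td had no fragment in any mouse and were not tested, which does not show that their RNA was absent. Differences are log2 fold changes on the log2(FPKM + 0.1) scale with their standard errors (SE) and Benjamini-Hochberg adjusted p-values from limma over all 10216 genes tested. Genes were called where the fold change exceeded 1.2 and the adjusted p was below 0.05.

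HFD against NC asks what the diet changed. Of 31 members, 6 fell and none rose: the complex I mRNAs mt-Nd1, mt-Nd2, mt-Nd4 and mt-Nd5, the complex III mRNA mt-Cytb and the tRNA mt-Tp. That is 19.4% of the members, while 20.2% of all tested genes were called in either direction, 9.49% lower and 10.7% higher. The share called is thus near the background, and its direction was downward. The median log2 fold change of the 31 was -0.30, and that of all tested genes -0.03. Without NC6, 8 members were called, beside 2025 of all 10216 tested genes, and all 6 remained among them.

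mt-Nd1 ranged from 4027 through a median of 5052 to 6766 FPKM in NC mice, and from 3170 through 3544 to 4307 in HFD mice. All 6 HFD mice lay below the NC mean, with the 2 ranges overlapping at their ends. The log2 fold change was -0.52 ± 0.14 (SE, limma adjusted p = 0.0162).

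mt-Cytb was at 6372, 7735 and 8419 FPKM (lowest, median and highest) in NC mice and at 4541, 5719 and 6553 in HFD mice, a log2 fold change of -0.44 ± 0.12 (SE, limma adjusted p = 0.0182). Each HFD mouse was below the NC mean, and the highest HFD mouse reached into the NC range. mt-Nd4 was at 2357, 2678 and 3244 FPKM in NC and at 1770, 2074 and 2418 in HFD mice, with a log2 fold change of -0.43 ± 0.11 (SE, limma adjusted p = 0.0185).

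mt-Nd2 was at 4499, 5255 and 6555 FPKM in NC and at 3578, 4028 and 4787 in HFD mice (log2 fold change -0.39 ± 0.12, SE, limma adjusted p = 0.0344). mt-Nd5 was at 1583, 2073 and 2664 FPKM in NC and at 1225, 1596 and 1798 in HFD mice (-0.43 ± 0.14, limma adjusted p = 0.0443). For both genes all 6 HFD mice lay below the NC mean and the ranges overlapped. mt-Nd1, mt-Cytb, mt-Nd4 and mt-Tp were called with each of the 12 mice left out in turn, mt-Nd2 in 6 and mt-Nd5 in 3 of the 12 fits.

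The 2 other abundant mRNAs did not pass. mt-Co1 was at 9168, 10092 and 11608 FPKM in NC and at 7135, 8243 and 9793 in HFD mice (log2 fold change -0.30 ± 0.11, SE, limma adjusted p = 0.0611). mt-Nd6 was at 1210, 1990 and 4223 FPKM in NC and at 1051, 1387 and 1613 in HFD mice (-0.64 ± 0.25, limma adjusted p = 0.0832). Its highest value belonged to NC5, where mt-Nd6 was 1.92 times mt-Nd5 per length, against 0.764 to 1.04 in the other NC mice.

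**Figure D2:**
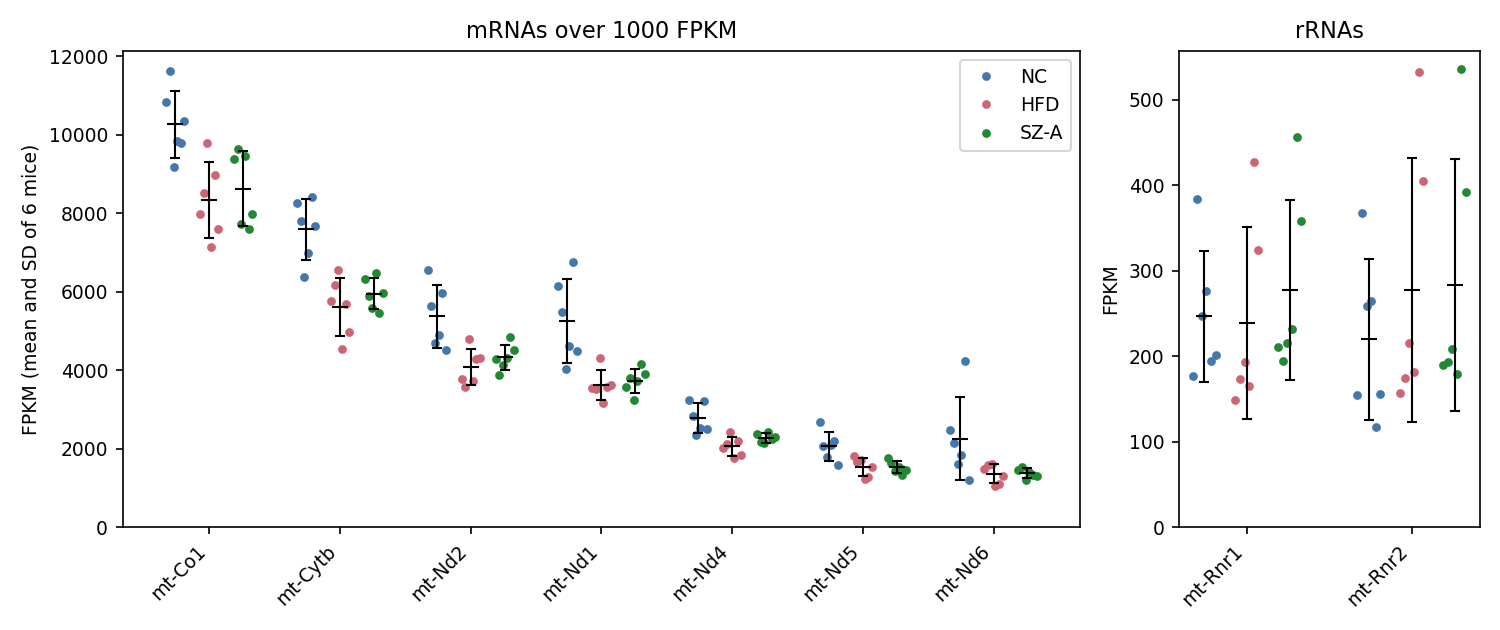
FPKM of the 7 mRNAs over 1000 FPKM (left) and the 2 rRNAs (right) in each mouse, with the mean and SD of 6 mice per group. For each of the 7 mRNAs the HFD and SZ-A means lie below the NC mean, while for the rRNAs 2 mice of the HFD group and 2 of the SZ-A group stand above the rest of their group.

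These calls depended on the scale. With each mouse scaled by its median ratio to the average over mice, the same 6 were called. The median of all genes was then -0.03, as on the deposited scale. With voom on the worked-back fragments 7 were called, these 6 and mt-Co1. Over all genes these 2 fits called 2061 and 2079. With FPKM rescaled to the same sum in every mouse, none of the 6 was called, and mt-Tn was called higher (log2 fold change 1.25, limma adjusted p = 0.0375). The log2 fold change of mt-Nd1 was then -0.33 (limma adjusted p = 0.0529), that of mt-Cytb -0.25 (0.122) and that of mt-Co1 -0.11 (0.466). With plain fragment totals as library size, mt-Nd1 was called lower (-0.37, limma adjusted p = 0.0482) and mt-Tn higher (1.22, 0.0411). All 7 abundant mRNAs kept a negative fold change on both scales. On the common-sum scale the median of all genes moved from -0.03 to 0.15 and that of the members from -0.30 to -0.11. Over all genes, 1092 were called higher and 970 lower on the deposited scale, and 2100 higher and 334 lower at a common sum.

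**Figure D3:**
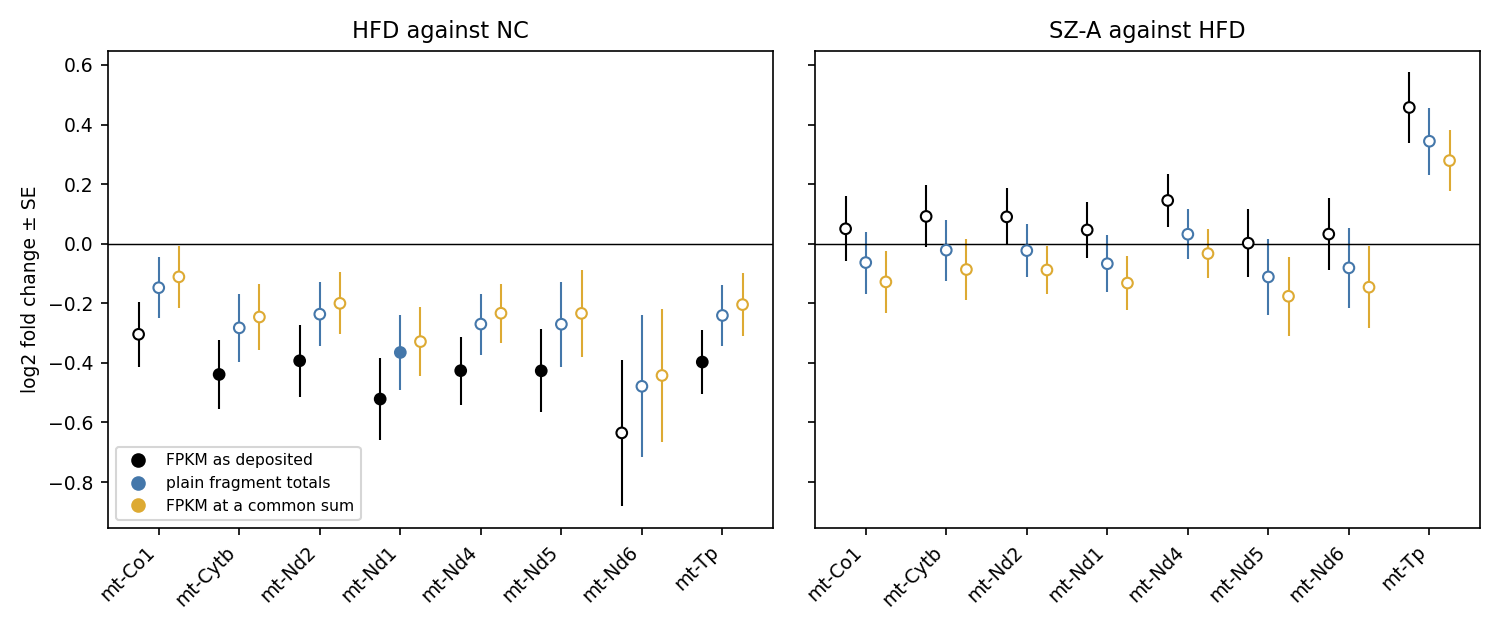
Log2 fold change ± SE of the 7 abundant mRNAs and mt-Tp on 3 scales, for HFD against NC (left) and SZ-A against HFD (right), with filled circles for called genes. In HFD against NC all values stay below 0 but 6 filled circles on the deposited scale become 1 and 0 on the others.

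None of the 6 mRNAs of low level was called in HFD against NC. Errors were wide for mt-Atp6, mt-Atp8, mt-Co3 and mt-Nd4l (SE 0.37 to 0.54), while mt-Nd3 had a small log2 fold change (-0.22 ± 0.14, SE, limma adjusted p = 0.300). mt-Co2 was at 78.0, 112 and 146 FPKM in NC and at 65.2, 71.2 and 136 in HFD mice (log2 fold change -0.44 ± 0.19, SE, limma adjusted p = 0.122). mt-Atp6 was at 72.4, 148 and 326 FPKM in NC and at 53.5, 90.1 and 181 in HFD mice (-0.69 ± 0.37, limma adjusted p = 0.199). mt-Co3 was at 36.2, 73.2 and 86.1 FPKM in NC and at 25.8, 90.2 and 299 in HFD mice, and mt-Nd4l at 31.4, 43.7 and 218 and at 27.3, 58.9 and 147. The spread of these 2 within a group was wider than any difference between group medians. mt-Nd3 was at 60.6, 71.2 and 110 FPKM in NC and at 62.4, 65.2 and 81.3 in HFD mice, and mt-Atp8 at 3.65, 5.11 and 6.05 and at 0.740, 2.92 and 8.53, the latter on 3 to 40 fragments per mouse. Of the 7 chromosome 1 copies, Gm28437 (log2 fold change -0.44 ± 0.13, SE, limma adjusted p = 0.0237) and Gm28661 (-0.43 ± 0.14, limma adjusted p = 0.0393) were lower in HFD than in NC mice. None of the 7 was called at a common sum or with plain totals, and without NC6 Gm28437 was.

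The rRNAs did not differ beyond the spread between mice. mt-Rnr1, the small subunit rRNA, was at 177, 224 and 384 FPKM in NC and at 149, 183 and 428 in HFD mice (log2 fold change -0.11, 95% interval -0.69 to 0.47, limma adjusted p = 0.804). mt-Rnr2, the large subunit rRNA, was at 117, 208 and 368 FPKM in NC and at 157, 198 and 533 in HFD mice (0.28, interval -0.46 to 1.02, limma adjusted p = 0.597). Both rRNAs were highest together in HFD5 and HFD6, in SZ-A5 and SZ-A6, and in NC2, so that the spread within groups was shared by the pair.

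The tested tRNAs moved both ways, 8 with a positive and 8 with a negative log2 fold change in HFD against NC, and mt-Tp was the one called. mt-Tp was at 1190, 1310 and 1581 FPKM in NC and at 865, 971 and 1229 in HFD mice (log2 fold change -0.40 ± 0.11, SE, limma adjusted p = 0.0191). Every HFD mouse was below the NC mean, and the ranges overlapped. On the common-sum scale it was not called (-0.20, limma adjusted p = 0.178).

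mt-Te and the leucine tRNA mt-Tl2 overlapped between all groups. mt-Te was at 266, 488 and 542 FPKM in NC, at 316, 385 and 452 in HFD and at 313, 358 and 436 in SZ-A mice, and its lowest NC value was that of NC6. mt-Tl2 was at 104, 124 and 162, at 97.6, 116 and 148 and at 89.5, 153 and 210 FPKM. Rarer tRNAs rested on few fragments. The other leucine tRNA mt-Tl1 ranged from 10.7 to 58.0 FPKM over the 18 mice (13 to 76 fragments), and mt-Tr for arginine, mt-Tw for tryptophan, mt-Tm for methionine and mt-Tq for glutamine had 2 to 32 fragments per mouse. mt-Ta had no fragment in 4 mice and at most 7 in any. mt-Ti was at 5.37, 12.5 and 20.7 FPKM in NC, at 4.80, 9.33 and 16.03 in HFD and at 1.63, 4.68 and 9.52 in SZ-A mice, on 2 to 29 fragments per mouse.

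SZ-A against HFD asks what the treatment changed in mice on the diet. None of the 31 members was called by limma, as against 0.147% of all tested genes. At an unadjusted p under 0.05 there were 3: mt-Tp, mt-Tg and mt-Ti for isoleucine. The share of all tested genes at that level was not counted here, so these 3 have no background. With voom on the worked-back fragments none was called either, beside 28 of all tested genes. With sample weights mt-Tp was called, beside 233 of all 10216 tested genes. The median log2 fold change of the members was 0.05, and that of all tested genes 0.03.

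The abundant mRNAs of HFD and SZ-A mice lay close together. mt-Co1 was at 7588, 8675 and 9633 FPKM in SZ-A mice (log2 fold change 0.05, 95% interval -0.19 to 0.29, limma adjusted p = 0.873). mt-Cytb was at 5453, 5927 and 6464 FPKM (0.09, interval -0.13 to 0.32, limma adjusted p = 0.729). mt-Nd1 was at 3237, 3765 and 4154 FPKM (0.05, interval -0.16 to 0.25, limma adjusted p = 0.860). Over the 7 mRNAs the log2 fold change ran from 0.00 to 0.15 on the deposited scale and from -0.18 to -0.03 at a common sum, so no direction can be given.

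mt-Tp was at 1096, 1384 and 1773 FPKM in SZ-A mice, against 865, 971 and 1229 in HFD mice. All 6 SZ-A mice were above the HFD mean, with the ranges overlapping. The log2 fold change of 0.46 ± 0.12 (SE) had a limma p of 0.00191 before and 0.109 after adjustment. It was positive on the other scales also, with 0.34 for plain totals and 0.28 at a common sum.

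mt-Tg was at 19.8, 37.4 and 42.3 FPKM in HFD and at 10.9, 16.7 and 29.99 in SZ-A mice (log2 fold change -0.87 ± 0.26, SE, limma adjusted p = 0.160). Those values stand for 13 to 37 fragments per SZ-A mouse, and the gene lies in the stretch copied on chromosome 1. mt-Ti had a log2 fold change of -0.91 ± 0.38 (SE, limma adjusted p = 0.287).

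SZ-A against NC compares treated mice on the diet with mice on chow, and it shares its mice with the other 2 comparisons. Of 31 members, 7 were called, 22.6% of them, where 9.6% of all tested genes were called in either direction, 4.3% lower and 5.31% higher. 6 fell (mt-Nd1, mt-Nd5, mt-Cytb, mt-Tg, mt-Th and mt-Ts2) and mt-Tn rose. The median log2 fold change of the members was -0.30, and that of all tested genes -0.01. At a common sum the same 7 were called, and with plain totals 6 of them, without mt-Nd5, beside 796 and 998 over all genes.

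3 mRNAs were among the genes called. mt-Nd1 had a log2 fold change of -0.48 ± 0.13 (SE, limma adjusted p = 0.0399), mt-Nd5 one of -0.42 ± 0.12 (0.0464) and mt-Cytb one of -0.35 ± 0.10 (0.0432). mt-Nd5 was at 1327, 1495 and 1756 FPKM in SZ-A mice. For all 3 genes each SZ-A mouse was below the NC mean, and the ranges overlapped. With each of the 12 mice left out in turn, mt-Nd1 was called in 3 fits and mt-Cytb and mt-Nd5 in 2 each. mt-Co1 (-0.25, limma adjusted p = 0.150), mt-Nd2 (-0.30, 0.107) and mt-Nd4 (-0.28, 0.0953) did not pass.

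The tRNAs had the largest fold changes and the fewest fragments. mt-Th was at 35.6, 75.0 and 128 FPKM in NC mice, at 15.5, 39.5 and 79.9 in HFD mice and at 21.8, 25.8 and 41.0 in SZ-A mice. The SZ-A values rested on 29 to 48 fragments per mouse. SZ-A5 was the highest, with the nearest SZ-A mouse at 26.3 FPKM. The 2 lowest NC mice were within the SZ-A range only through SZ-A5. The log2 fold change against NC was -1.26 ± 0.29 (SE, limma adjusted p = 0.0161).

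mt-Ts2, which adjoins mt-Th in the genome, was at 40.4, 81.7 and 116 FPKM in NC mice, at 22.0, 36.0 and 91.5 in HFD mice and at 19.6, 30.7 and 43.1 in SZ-A mice. The log2 fold change against NC was -1.15 ± 0.27 (SE, limma adjusted p = 0.0194). Because the 2 genes lie side by side and are shorter than a read, a fragment can cover both. How such fragments were counted was not examined here, so the 2 genes may not be independent. Both were called with each of the 12 mice left out in turn. In SZ-A against HFD neither passed (-0.48 with limma adjusted p = 0.557 for mt-Th, and -0.25 with 0.775 for mt-Ts2).

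mt-Tg was at 21.0, 55.9 and 82.7 FPKM in NC mice. Its log2 fold change in SZ-A against NC was -1.37 ± 0.36 (SE, limma adjusted p = 0.0306) and rested on 13 to 98 fragments per mouse. That of mt-Ti was -1.22 ± 0.41 (limma adjusted p = 0.0804). For mt-Tg all 6 SZ-A mice were below the NC mean, and the ranges overlapped. It was called in 5 of the 12 fits with a mouse left out.

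mt-Tn was at 18.3, 62.9 and 96.1 FPKM in NC mice, at 53.8, 133 and 172 in HFD mice and at 102, 127 and 195 in SZ-A mice. No SZ-A mouse overlapped the NC range, and the log2 fold change was 1.27 ± 0.33 (SE, limma adjusted p = 0.0306). In HFD against NC it was 1.06 ± 0.40 (limma adjusted p = 0.0730), and 1.25 (0.0375) at a common sum. In the same cluster on the minus strand, mt-Ty for tyrosine was at 19.4, 59.2 and 84.7 FPKM in NC and at 74.5, 95.1 and 119 in SZ-A mice (0.90 ± 0.31, limma adjusted p = 0.0894), and mt-Tc at 64.6, 191 and 285 in NC and 202, 257 and 385 in SZ-A mice (0.70 ± 0.33, 0.203). The fourth gene of the cluster, mt-Ta, had -0.70 (95% interval -2.86 to 1.46, limma adjusted p = 0.717) on at most 7 fragments per mouse. NC5 had the lowest value of the 18 mice for mt-Tn, mt-Ty and mt-Tc. mt-Tn was called in 7 of the 12 fits with a mouse left out.

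**Figure D4:**
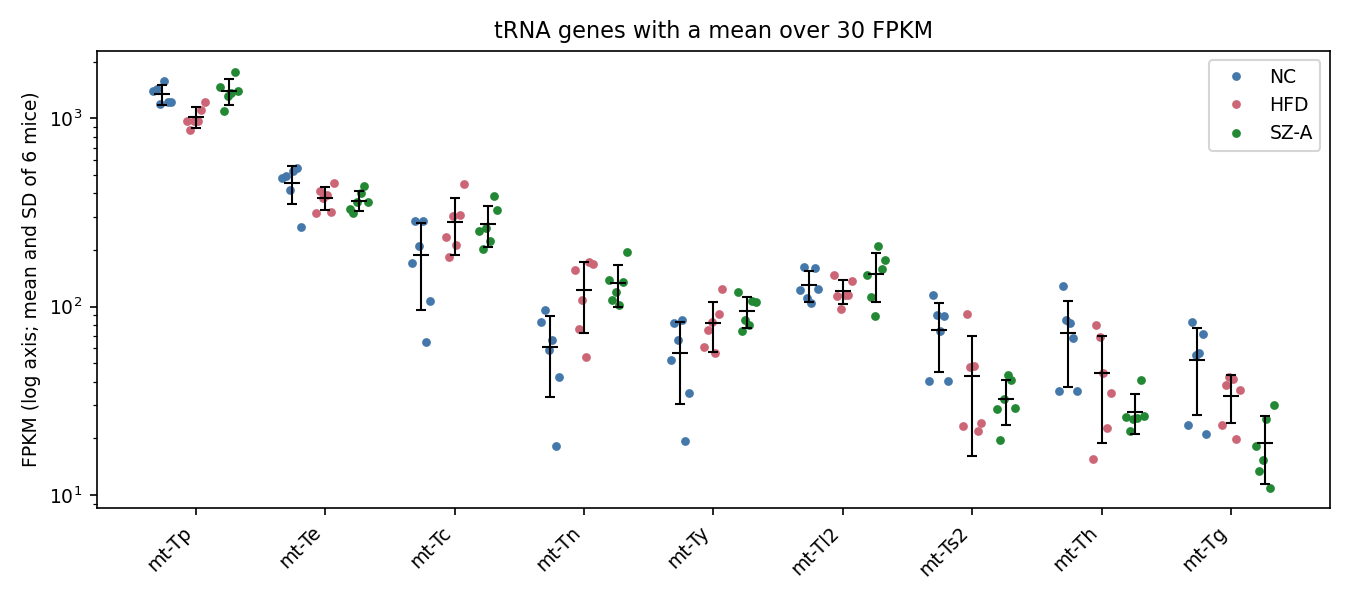
FPKM of the 9 tRNA genes with a mean over 30 FPKM in each mouse on a log axis, with the mean and SD of 6 mice per group. mt-Tn is higher in every SZ-A mouse than in any NC mouse. The SZ-A means of mt-Th and mt-Ts2 lie below the NC means, with SZ-A5 above the other SZ-A mice for mt-Th.

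Without NC6, 8 members were called in SZ-A against NC, beside 947 of all 10216 tested genes. mt-Nd1, mt-Nd5, mt-Tg, mt-Th and mt-Ts2 were again among them. mt-Cytb (log2 fold change -0.34, limma adjusted p = 0.0667) and mt-Tn (limma adjusted p = 0.0562) were not, and mt-Nd6, mt-Te and mt-Ti were added. Without SZ-A3, 2 remained, mt-Th and mt-Ts2.

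**Figure D5:**
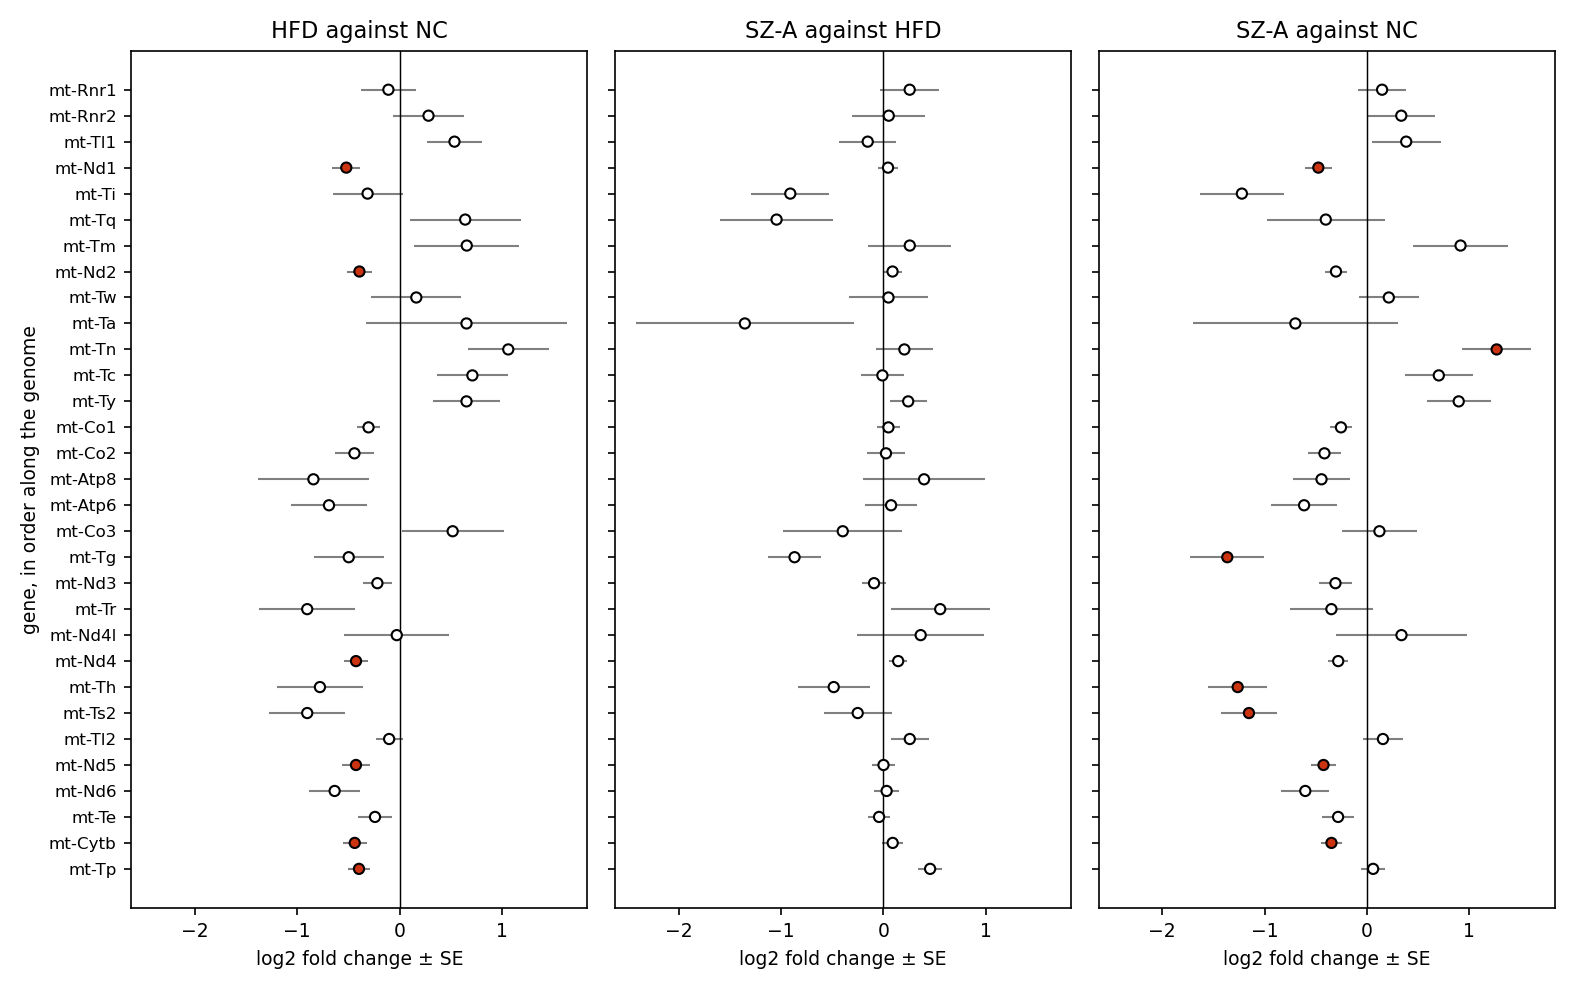
Log2 fold change ± SE of the 31 tested genes in the 3 comparisons, in order along the genome, with red for called genes. In HFD against NC 6 are red and below 0, in SZ-A against HFD none is, and in SZ-A against NC 6 are below 0 and mt-Tn above.

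The nuclear genes that act with the mitochondrial genome were read from 8 lists, beside 9.49% of all tested genes called lower and 10.7% called higher in HFD against NC. On the deposited scale 2 of 36 nuclear complex I subunits fell, Ndufs7 (log2 fold change -0.42, limma adjusted p = 0.0449) and Ndufv2 (-0.27, 0.0460), with a list median of -0.12. Of 4 complex II subunits Sdhd, a membrane anchor of succinate dehydrogenase, fell (-0.45 ± 0.10, SE, limma adjusted p = 0.00608, list median -0.02). None of 9 complex III and none of 11 complex IV subunits was called (medians -0.10 and -0.13), and of 15 ATP synthase subunits Atp5o fell (-0.37, limma adjusted p = 0.0343, list median -0.14). Apart from the small complex II list, these shares are below the background. Without NC6 the counts were 2, 1, 0, 1 and 2 in the same order, all lower.

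Of 15 genes for mitochondrial transcription and DNA replication, Mterf2 rose (log2 fold change 0.47, limma adjusted p = 0.0322) and Tfb2m, a transcription factor of the mitochondrial promoters, fell (-0.29 ± 0.09, SE, limma adjusted p = 0.0409). The mitochondrial RNA polymerase Polrmt had -0.23 (limma adjusted p = 0.0844) and the DNA packaging factor Tfam -0.16 (0.161). Of 23 genes for mitochondrial RNA processing and stability, 4 fell: Grsf1, a protein of the mitochondrial RNA granules, Trmu, which modifies tRNAs (-0.39, limma adjusted p = 0.0467), Tbrg4 (-0.38, 0.0430) and 1110008L16Rik (-0.30, 0.0491). Grsf1 was at 37.4, 41.3 and 49.0 FPKM in NC and at 29.0, 31.8 and 32.1 in HFD mice, without overlap (log2 fold change -0.42 ± 0.07, SE, limma adjusted p = 0.00150). None of 6 tested regulators of mitochondrial biogenesis was called, Ppargc1a included (-0.72 ± 0.30, limma adjusted p = 0.0997). Without NC6, 3 genes for transcription and replication fell (Polrmt, Tfb1m and Tfb2m) and 2 for RNA processing (Grsf1 and Tbrg4).

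These downward calls depended on the scale and on single mice. At a common sum no gene of the 8 lists was called lower, the medians of all 8 lists were above 0, and 3 complex I, 2 complex II, 2 transcription and 2 RNA processing genes were called higher. With plain totals Sdhd and Grsf1 were still called lower. With each mouse left out, 0 to 2 complex I subunits, 0 to 2 ATP synthase subunits, 0 to 3 genes for transcription and 1 to 2 for RNA processing were called, and Sdhd alone of complex II in every fit. The mitochondrial mRNAs had a median of -0.43 on the deposited scale and -0.23 at a common sum, below that of each list on both, and the difference was not tested.

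In SZ-A against HFD none of the genes in the 8 lists was called by limma, on the deposited scale, at a common sum or with plain totals. At an unadjusted p under 0.05 there were 4 of 36 complex I, 2 of 11 complex IV and 3 of 15 ATP synthase subunits. There were also 2 of 23 RNA processing genes, and none in the other lists. The share of all tested genes at that level was not counted here, so these counts have no background. In SZ-A against NC, Sdhd (-0.37 ± 0.10, SE, limma adjusted p = 0.0309) and Grsf1 (-0.29 ± 0.07, 0.0273) fell and Mgme1, a nuclease that trims mitochondrial DNA, rose (0.60 ± 0.17, 0.0415). At a common sum Mgme1 was not called, and with plain totals Grsf1 was not. Without NC6 all 3 were called, and Tfb2m was called lower. Of the chromosome 1 copies Gm10925 was lower in SZ-A than in NC mice (-0.41 ± 0.12, SE, limma adjusted p = 0.0462), also without NC6, but not at a common sum or with plain totals.

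Cell type markers moved between the groups as well. The summed level of 10 hepatocyte markers ran from 50728 to 74453 FPKM (NC), from 35366 to 57554 (HFD) and from 42402 to 68852 (SZ-A). That of 8 Kupffer cell and macrophage markers ran from 129 to 262, from 246 to 376 and from 220 to 303 FPKM in the same order, and that of 8 stellate cell markers from 36.9 to 56.6, from 41.7 to 93.2 and from 38.4 to 56.3 FPKM. No hepatocyte, macrophage or stellate cell marker was at 0 in a group.

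In HFD against NC, where 9.49% of all tested genes were called lower and 10.7% higher, 4 of the 10 hepatocyte markers fell (Apoa1, Ass1, Cps1 and Serpina1a). Of the macrophage markers 4 of 8 rose (Adgre1, Cd5l, Cd68 and Lyz2), and of the stellate cell markers 5 of 8 (Col1a1, Col3a1, Lrat, Pdgfrb and Reln). Of 7 tested endothelial markers Lyve1 rose, while 2 of the 7 had a negative fold change. Cfd rose too, the only 1 of 5 adipocyte markers that passed the filter. No tested cholangiocyte, B cell or erythroid marker was called on the deposited scale, and no T cell marker passed the filter. At a common sum and with plain totals 3 hepatocyte markers fell, without Serpina1a, and 5 macrophage and 6 stellate cell markers rose. The endothelial marker Pecam1 and the erythroid marker Alas2 were called higher on both of these scales as well. Without NC6 the hepatocyte, macrophage and stellate cell counts were 4, 4 and 5, Lyve1 was not called, and Alas2 was called higher.

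In SZ-A against HFD, where 0.147% of all tested genes were called, 1 of 8 macrophage markers fell, Cd68 (log2 fold change -0.64 ± 0.11, SE, limma adjusted p = 0.0451). At a common sum Adgre1, Lyz2, Col1a1, Col3a1 and Cfd were called lower as well and Apoa1 higher. Over all genes 206 were called lower and 10 higher there. With plain totals Adgre1, Cd68 and Lyz2 were called lower and Apoa1 higher. In SZ-A against NC, 4.3% of all tested genes were called lower and 5.31% higher. The hepatocyte markers Ass1 and Cps1 fell, 2 of 10, and Cd68 and Col3a1 rose, each 1 of 8 on its list. Of 6 cholangiocyte markers 2 were tested: Sox9 fell (-0.62 ± 0.15, limma adjusted p = 0.0226), and Spp1 was not called (0.16). At a common sum Cd68 and Col3a1 were not called there, and without NC6 Cd5l and Clec4f were called higher as well. In bulk liver, fewer cells of a type and less RNA per cell cannot be told apart, and the part of these shifts in the mitochondrial levels was not tested.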

How the data were processed

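RNA-seq of 18 mouse livers was analysed, 6 per group. The authors caught RNA on poly-T beads, sequenced pairs of 150-base reads, and aligned them to mm10 (GRCm38). The submitters' processing notes name HISAT2 2.0.5 and featureCounts 1.5.0-p3. Strand setting and treatment of fragments that fit several places are not given in the sources used here. The deposited values are FPKM per gene, normalized by the authors. FPKM times gene length gave whole fragments for 100% of values above 0 (tolerance 0.05).

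Groups came from sample titles. limma 3.58.1 (R 4.3.3, lmFit and eBayes with trend) was run on log2(FPKM + 0.1) for the 10216 genes with a mean of at least 1 FPKM, on 2 groups at a time, with Benjamini-Hochberg adjustment over all of them. The p-values weigh each group difference against the spread between these mice, which eBayes estimates with help from all tested genes. The script was tested on simulated data. Annotated transcripts of GENCODE vM21 were searched for copies with blastn 2.17.0, and printed sequences were read from them. A genome sequence was not used here.

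Members and lists were chosen with earlier results of these data known. All 37 members are accounted for. mRNAs, rRNAs and tested tRNAs are named with levels or their range, and the chromosome 1 copies and the called genes of each list are named. Alternatives were other pseudocounts, filters, scalings and weights, 1 fit over all mice, no trend, voom on the fragments, a replicate block and leaving out each mouse.

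Same-numbered mice of 2 groups correlated at -0.12 to 0.29, and the labels give the numbers no meaning, so the numbers were not taken to pair mice.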

Additional observations from a re-analysis of the deposited data

Results flagged for a closer look

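Of 102 groups of 6 mice examined (each member or ratio between members in each group), 5 had a mouse whose gap to its nearest neighbour was above Dixon's 95% critical value for 6 samples, which chance passes in about 1 in 20 groups. mt-Co2 was at 136 FPKM in HFD5, with the nearest HFD mouse at 83.5. mt-Nd4l was at 218 FPKM in NC3, with the nearest NC mouse at 96.1. mt-Nd3 was at 81.3 FPKM in HFD6, with the nearest HFD mouse at 68.1. These 3 genes are copied almost whole on chromosome 1. mt-Th was at 41.0 FPKM in SZ-A5, with the nearest SZ-A mouse at 26.3. The ratio of mt-Nd6 to mt-Nd5, which lie on opposite strands and overlap, was 1.92 in NC5, with the nearest NC mouse at 1.04.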

How the results depend on the processing

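In HFD against NC, where 6 members were called, 0 were called with no filter on low values (27266 genes tested), 1 at a common sum, 1 at a common sum outside the mitochondrial genome and 2 with plain fragment totals. Over all genes these fits called 1898, 2434, 2284 and 2376, in the same order. Median-ratio scaling called 6 members and voom 7, beside 2061 and 2079 over all genes. With each mouse left out 4 to 8 were called, beside 1646 to 2145 of all genes. In SZ-A against HFD, where 0 were called, sample weights gave 1 (mt-Tp), beside 233 over all genes. In SZ-A against NC, where 7 were called, 0 were called with no filter, and 2 to 8 with each mouse left out: 2 without SZ-A3, 3 without NC2, NC4, NC5, SZ-A1, SZ-A2 or SZ-A6, 4 without NC1 or NC3, and 8 without NC6. Over all genes 564 were called with no filter and 601 to 1179 with each mouse left out. With a replicate block 2 were called in SZ-A against NC (mt-Th and mt-Ts2), 0 in SZ-A against HFD and 6 in HFD against NC. Of the last, mt-Cytb, mt-Nd1 and mt-Nd4 were shared with the unblocked fit. Over all genes the blocked fits called 922, 0 and 1647 in the same order, so in SZ-A against HFD no gene at all was called. Signs were followed over all fits for the called members and a few others, and the log2 fold changes among these that turned sign were small. mt-Rnr1 in HFD against NC was 0.083 at a common sum, 0.065 at a common sum outside the mitochondrial genome, 0.046 with plain totals and -0.30 to 0.028 with each mouse left out. mt-Rnr2 was -0.12 with sample weights. mt-Tp in SZ-A against NC was -0.010 to 0.13 with each mouse left out. The median of the members in SZ-A against HFD was -0.13, -0.14 and -0.063 on those 3 scales and -0.0070 to 0.081 with each mouse left out. The median of all genes moved from 0.03 to -0.15, -0.16 and -0.09 on the same scales. In SZ-A against HFD 20 members had a log2 fold change above 0 and 11 below on the deposited scale, and 9 and 22 at a common sum. In HFD against NC these counts were 10 and 21, and 13 and 18 at a common sum. As a share of summed FPKM instead of fragments, mitochondrial genes took 9.02% (NC), 7.88% (HFD) and 7.34% (SZ-A), since FPKM weighs by length. The causes of the other changes were not tested. Low fragment counts limit mt-Atp8 and the rarer tRNAs.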
